A study of Mus musculus with 11 samples.

Results

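The small leucine-rich proteoglycans (SLRPs) were examined in the tibialis anterior (TA) as 9 genes, *Bgn*, *Dcn*, *Aspn*, *Fmod*, *Lum*, *Prelp*, *Kera*, *Omd* and *Ogn*, of the 21759 gene symbols on the array. The members were chosen by symbol, and each was read by 1 probe set, which covers the whole gene. RNA came from mid-belly sections of the TA of 11 male mice, all 14 weeks old, with a separate Affymetrix Mouse Gene ST 1.1 array for each. The groups were 3 untreated wild-type mice of the strain labelled C57/B10 (C57), 4 untreated *mdx* mice, and 4 *mdx* mice given 1 intravenous dose of Pip6e-PMO at 12.5 mg/kg when 12 weeks old. The *mdx* mouse carries a nonsense mutation in *Dmd* and lacks most dystrophin, the protein that links the muscle cytoskeleton to the membrane. Pip6e-PMO is a peptide-conjugated morpholino oligonucleotide that makes the splicing machinery skip the mutated exon, so the treated mice carried the *mdx* mutation as well. The comparisons asked which SLRP transcripts differed in dystrophic muscle and which differed after the exon skipping drug. The treated mice were compared with both other groups, and *mdx* and C57 mice each served in 2 comparisons, so the comparisons are not independent.

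SLRPs are secreted proteins with a core of leucine-rich repeats, most of which carry chains of chondroitin, dermatan or keratan sulfate. They coat collagen fibrils and set their spacing and thickness, hold growth factors such as TGF-beta in the matrix, and when set free can signal through cell surface receptors. In skeletal muscle they lie in the connective tissue around fibres and fascicles and in tendon, and biglycan also binds the dystrophin-associated complex at the fibre membrane.

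Signals are given as log2 of the deposited intensity, and differences as log2 differences between group means with 95% intervals. The test covered the 14494 probe sets whose mean signal reached 30 (4.91 on the log2 scale) in any group, and a difference was called where its p, adjusted over all 14494, was under 0.05. Of the 9 members, 8 passed this minimum, and *Omd* did not. *Aspn* passed it through the *mdx* and treated groups, since its C57 mean was below it, so its difference from C57 was favoured by the filter. The median intensity of the arrays ran from 27.5 to 28.6. The probe set of *Dmd* does not read exon skipping, and its log2 signal ran from 5.77 to 5.87 in C57 mice, from 4.60 to 5.82 in *mdx* mice and from 5.51 to 6.34 in treated mice. Skeletal muscle fibre markers were strongly present, with 8 of 8 tested, 0 called by limma in any comparison (at most 1 at an unadjusted p under 0.05) and a summed intensity between 51142 and 55181 in every mouse. C57 mouse 3 and treated mouse 1 had low tendon genes, described beside the members that this touches. The number of mice, 3 or 4 a group, limits the precision, and in pieces of whole muscle fewer cells of a type and less RNA per cell cannot be told apart.

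Most SLRP genes lie in clusters of neighbours. In the order of protein-coding genes of the RefSeq annotation of GRCm38.p6, *Dcn*, *Lum*, *Kera* and *Epyc* follow each other on chromosome 10, *Ecm2*, *Aspn*, *Omd* and *Ogn* on chromosome 13, and *Optc*, *Prelp* and *Fmod* on chromosome 1, while *Bgn* lies on the X chromosome between *Haus7* and *Atp2b3*. RefSeq promoters of the same build, 250 bases before to 50 after the gene's start, were found for 7 of the 9 members, all but *Dcn* and *Lum*. The promoter of *Bgn* is shown because *Bgn* had the smallest adjusted p of the members in *mdx*, and those of *Aspn*, *Omd* and *Ogn* because these 3 genes are neighbours on chromosome 13 whose signals differed. Their places are chrX:73483351-73483650 for *Bgn*, chr13:49544193-49544492 for *Aspn*, chr13:49582212-49582511 for *Omd* and chr13:49607765-49608064 for *Ogn*, all on the plus strand. Capitals mark matches to any of 4 motifs, searched on both strands.
Bgn: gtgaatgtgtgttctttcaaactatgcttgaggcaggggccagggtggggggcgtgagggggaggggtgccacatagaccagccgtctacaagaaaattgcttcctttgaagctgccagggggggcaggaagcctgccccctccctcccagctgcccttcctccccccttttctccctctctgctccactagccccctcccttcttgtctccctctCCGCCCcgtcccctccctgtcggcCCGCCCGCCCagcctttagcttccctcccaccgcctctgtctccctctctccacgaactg
Aspn: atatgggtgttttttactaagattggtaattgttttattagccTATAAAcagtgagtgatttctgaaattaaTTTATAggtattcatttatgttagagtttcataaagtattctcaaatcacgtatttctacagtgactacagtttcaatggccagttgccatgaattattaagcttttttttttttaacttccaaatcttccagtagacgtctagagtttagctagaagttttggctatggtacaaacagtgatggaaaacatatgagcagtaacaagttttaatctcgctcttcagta
Omd: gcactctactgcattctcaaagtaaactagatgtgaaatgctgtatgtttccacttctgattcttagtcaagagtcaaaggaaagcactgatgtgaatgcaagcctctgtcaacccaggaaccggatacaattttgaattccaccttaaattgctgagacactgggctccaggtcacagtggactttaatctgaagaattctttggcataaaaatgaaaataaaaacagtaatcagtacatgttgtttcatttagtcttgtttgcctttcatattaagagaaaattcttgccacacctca
Ogn: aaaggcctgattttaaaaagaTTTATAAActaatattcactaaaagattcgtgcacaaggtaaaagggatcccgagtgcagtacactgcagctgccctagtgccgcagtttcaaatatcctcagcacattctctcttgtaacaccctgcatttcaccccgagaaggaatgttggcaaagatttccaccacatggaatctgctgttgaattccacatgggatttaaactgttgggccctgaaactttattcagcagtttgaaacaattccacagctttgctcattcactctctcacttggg

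The motifs were the TATA box TATAAA, the AP-1 site TGANTCA, the GC box GGGCGG and the SMAD element CAGAC, which 13.6%, 7.8%, 35.7% and 49.6% of 32851 RefSeq promoters of this length held. The *Bgn* window held 3 GC box matches, at -34, -10 and -6 from the start, the last pair overlapping, and no TATA box. The *Aspn* window held 2 TATA box matches, at -207 and -178, and that of *Ogn* held 2 that overlap, at -229 and -227. The *Omd* and *Kera* windows held none of the 4 motifs, and those of *Fmod* and *Prelp* held SMAD elements alone, 2 and 3. *Bgn* had the most GC-rich window of the 7, at 63.7% GC, against 31.0% in *Aspn*, 37.7% in *Omd* and 42.3% in *Ogn*, with a median of 52.7% over all promoters. A match is a run of letters and no evidence of binding.

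In *mdx* muscle 3 of the 8 tested SLRP transcripts rose and none fell: *Lum* 2.94-fold, *Aspn* 2.57-fold and *Bgn* 1.77-fold. The same 3 were the members whose *mdx* and C57 mice did not overlap. Over all probe sets tested, 12.0% were called between *mdx* and C57 mice, 7.06% as higher, and 24.3% did not overlap. The median difference of the 8 members was 0.48 with 7 above 0, against a median of -0.01 over all probe sets. *Dcn*, *Fmod*, *Prelp*, *Kera* and *Ogn* were not called.

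Between treated and untreated *mdx* mice 0 of the 8 members were called by limma, and none of them had groups that did not overlap. Over all probe sets 11.1% were called, 7.26% as higher, and 16.0% did not overlap. An unadjusted p under 0.05 was found for 3 members, *Bgn* and *Prelp* with lower and *Ogn* with higher means in treated mice, and for 4565 of all 14494 probe sets, a like share. For the 8 members the median difference was 0.17 with 5 above 0, against 0.02 over all probe sets.

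Between treated and C57 mice 5 of the 8 members were higher, *Lum* 3.42-fold, *Aspn* 2.80-fold, *Ogn* 1.85-fold, *Dcn* 1.58-fold and *Bgn* 1.34-fold, and the same 5 did not overlap. The background here was wider, with 24.6% of all probe sets called, 15.6% as higher, and 32.0% without overlap. The median difference of the 8 was 0.75, against 0.00 over all probe sets. The count of 5 depended on single mice: without C57 mouse 2 or without C57 mouse 3 it was 2, *Aspn* and *Lum*, and without treated mouse 3 it was 3.

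**Figure D1:**
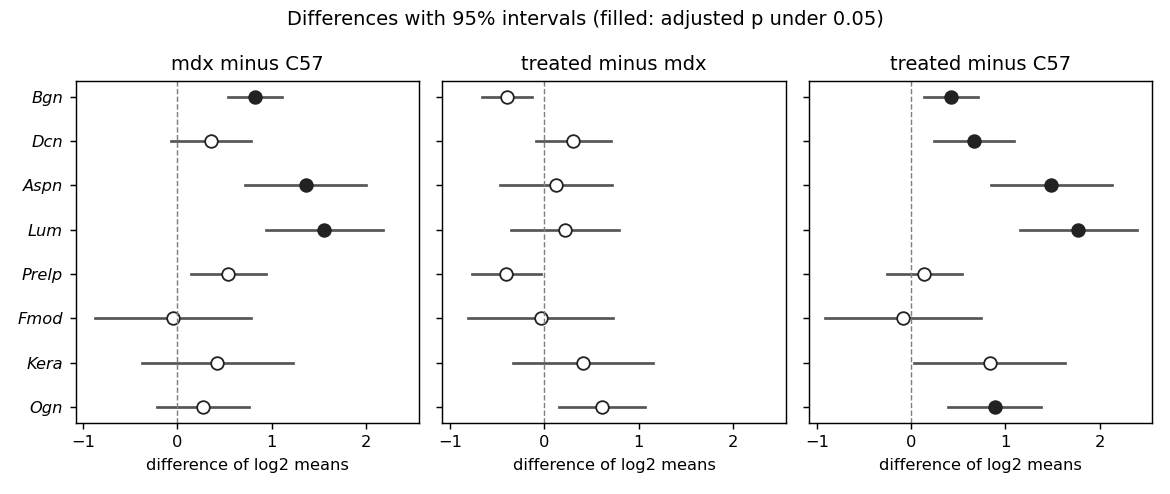
Differences of log2 group means of the 8 tested SLRP members in the 3 comparisons, with 95% intervals from limma; filled circles were called at an adjusted p under 0.05. *Bgn*, *Aspn* and *Lum* are called in *mdx* minus C57, none in treated minus *mdx*, and *Bgn*, *Dcn*, *Aspn*, *Lum* and *Ogn* in treated minus C57.

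Biglycan, encoded by *Bgn*, belongs with decorin and asporin to class I of the family, binds collagen I and the sarcoglycans, and in soluble form is a ligand of the receptors encoded by *Tlr2* and *Tlr4*. The log2 signal of *Bgn* was 10.92, 10.87 and 10.86 in C57 mice 1 to 3, 11.60, 11.72, 11.84 and 11.66 in *mdx* mice 1 to 4, and 11.08, 11.68, 11.29 and 11.18 in treated mice 1 to 4. The C57 mice lay within 0.06 of each other and every *mdx* mouse lay above them, while treated mice 1, 3 and 4 lay between both groups and treated mouse 2 among the *mdx* mice. The group means were 10.88 ± 0.03 (SD, n = 3), 11.71 ± 0.10 (SD, n = 4) and 11.31 ± 0.26 (SD, n = 4).

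*Bgn* was higher in *mdx* than in C57 mice by 0.82 (SE 0.13, interval 0.54 to 1.11, adjusted p = 0.00189) and remained called with each mouse left out in turn. In treated against untreated *mdx* mice it fell short of a call, at -0.40 (interval -0.66 to -0.13, adjusted p = 0.0535). This value sat at the edge: it was called without treated mouse 2 (-0.52, adjusted p = 0.0037) and, with all mice, with a trended and robust prior (adjusted p = 0.0357) or arrays centred on their medians (adjusted p = 0.0486), and not with repeated quantile normalization (-0.29, adjusted p = 0.129). Against C57, the treated mice were higher by 0.42 (interval 0.14 to 0.71, adjusted p = 0.0347), a call lost when C57 mouse 1, 2 or 3 or treated mouse 3 was left out. As a share of the *mdx* minus C57 difference, the treated mean had moved 48.4% of the way back, and the 4 treated mice 76.1%, 3.0%, 50.5% and 63.9%. The paper reports that a treated sample named T2 had the lowest exon skipping by RT-qPCR and the lowest dystrophin by mass spectrometry. Western blot values did not correlate significantly with either. The paper also counts *Bgn* among the restored mRNAs. It shows restoration as clusters of mRNAs changed in *mdx*, a measure unlike the treated minus *mdx* test used here. That T2 is treated mouse 2 rests on the number alone, and the part of exon skipping in these values was not tested.

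Macrophage markers, like *Bgn*, were mostly higher in *mdx* than in C57 mice. Of 8 listed, 7 were tested and 6 of these were called higher, where 7.06% of all probe sets were. *Itgam*, among the 6, was tested although its C57 mean was below the minimum signal. *Lgals3* was higher by 2.58, *Cd68* by 2.12, *Lyz2* by 1.70 and *Emr1* by 1.46. The summed intensity of the 8 lay at 996 to 1460 in the C57 and 2901 to 4681 in the *mdx* mice. In treated mice 1 to 4 it was 2215, 2995, 2371 and 2539, so treated mouse 2 was the highest of the treated mice in both *Bgn* and this sum. Among the *mdx* mice the 2 did not share an order. *Bgn* was highest in *mdx* mouse 3, whose sum of 3318 was below those of *mdx* mice 2 and 4, 4681 and 4117. Between treated and *mdx* mice *Lgals3* fell by 1.20 and *Cd68* fell by 1.03, and *Mrc1*, the mannose receptor, rose by 0.49. The other 4 tested markers were not called, where 11.1% of all probe sets were. Treated mouse 2 was also highest of its group for fibroblast and fibro-adipogenic progenitor, tenocyte, regenerating fibre, adipocyte, and cartilage and bone marker sums. Its sums of endothelial and skeletal muscle fibre markers were the lowest of the treated mice. The part of any of these cells in the *Bgn* result was not tested.

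**Figure D2:**
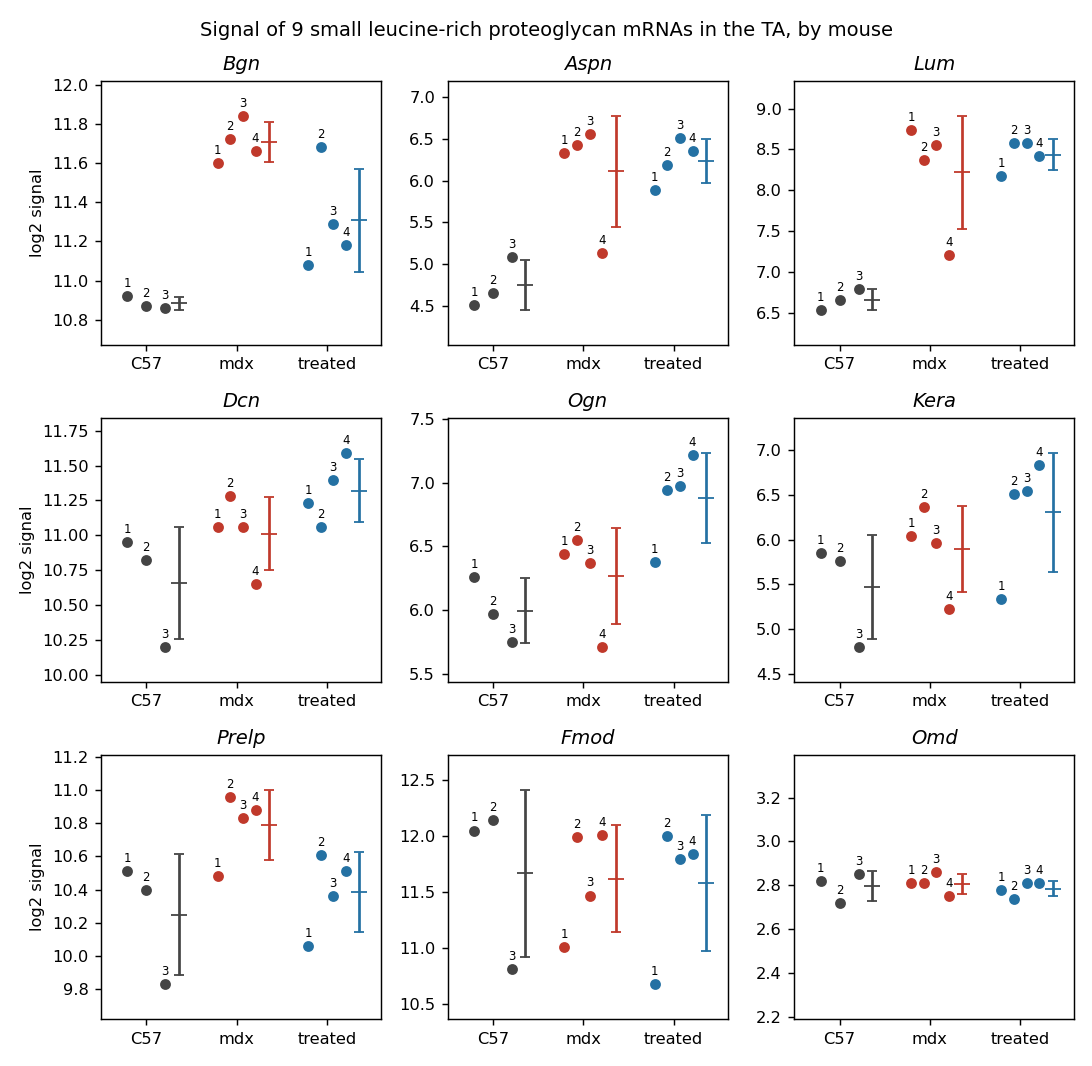
Log2 signal of each SLRP member in each mouse (points, numbered by mouse) with the group mean and SD beside them; the vertical scale differs between panels. The C57 and *mdx* mice are apart for *Bgn*, *Aspn* and *Lum*, *mdx* mouse 4 lies nearest the C57 mice for *Aspn* and *Lum*, and *Omd* stays near 2.8 in all mice.

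Decorin, encoded by *Dcn*, binds collagen I and ties up TGF-beta and myostatin. Its log2 signal was 10.95, 10.82 and 10.20 in C57, 11.06, 11.28, 11.06 and 10.65 in *mdx*, and 11.23, 11.06, 11.40 and 11.59 in treated mice. All 4 treated mice lay above all C57 mice, and the *mdx* mice overlapped both groups. The difference between *mdx* and C57 mice was 0.36 (interval -0.07 to 0.78, adjusted p = 0.295; 0.13 without C57 mouse 3), and that between treated and *mdx* mice 0.31 (interval -0.09 to 0.70, adjusted p = 0.268).

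Against C57 mice *Dcn* was higher in treated mice by 0.66 (interval 0.24 to 1.09, adjusted p = 0.0298). C57 mouse 3 held the lowest *Dcn* of the series, and without it the difference was 0.44 (adjusted p = 0.134). The call was also lost without C57 mouse 2, treated mouse 3 or treated mouse 4.

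Asporin, encoded by *Aspn*, carries a run of aspartates in place of the usual attachment sites for sugar chains, and binds collagen and TGF-beta. Its log2 signal was 4.51, 4.66 and 5.08 in C57, 6.33, 6.43, 6.56 and 5.13 in *mdx*, and 5.89, 6.19, 6.51 and 6.36 in treated mice. The C57 mice stood near or under the minimum signal, *mdx* mouse 4 was just above the highest of them, while *mdx* mice 1 and 2 lay among the treated mice and *mdx* mouse 3 was the highest of all. *Aspn* was higher in *mdx* than in C57 mice by 1.36 (SE 0.30, interval 0.72 to 2.01, adjusted p = 0.0103) and in treated than in C57 mice by 1.49 (interval 0.84 to 2.13, adjusted p = 0.00489).

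Treated and *mdx* mice differed in *Aspn* by 0.13 (interval -0.47 to 0.72, adjusted p = 0.792), and without *mdx* mouse 4 by -0.20 (adjusted p = 0.476). The treated mean had moved -9.2% of the way from *mdx* towards C57, that is, slightly away, with the 4 mice between -29.2% and 16.3%. Both calls against C57 held with each mouse left out in turn, with adjusted p up to 0.0475 for *mdx* and 0.0239 for treated mice.

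Lumican, encoded by *Lum*, is a keratan sulfate proteoglycan of class II that limits the lateral growth of collagen fibrils. Its log2 signal was 6.54, 6.66 and 6.79 in C57, 8.74, 8.37, 8.56 and 7.21 in *mdx*, and 8.17, 8.58, 8.58 and 8.42 in treated mice. No *mdx* or treated mouse reached down to the C57 mice, and *mdx* mouse 4 again lay closest to them. *Lum* had the largest differences from C57 among the members, 1.56 in *mdx* (SE 0.29, interval 0.94 to 2.18, adjusted p = 0.00419) and 1.77 in treated mice (interval 1.15 to 2.40, adjusted p = 0.00159), and both calls held with each mouse left out in turn.

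Treated and *mdx* mice were not called apart in *Lum*, at 0.22 (interval -0.36 to 0.79, adjusted p = 0.608), and at -0.12 without *mdx* mouse 4. The treated mean had moved -14.0% of the way towards C57, and the 4 mice between -23.1% and 3.2%. Whether the response to treatment differs between *Bgn* on one side and *Lum* and *Aspn* on the other was not tested.

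Fibromodulin, encoded by *Fmod*, binds collagen at the same site as lumican and is abundant in tendon. In the 11 arrays the log2 signal of *Fmod* was 12.05, 12.14 and 10.81 in C57, 11.01, 11.99, 11.47 and 12.01 in *mdx*, and 10.68, 12.00, 11.80 and 11.84 in treated mice. Each group spread widely, with C57 mouse 3, *mdx* mouse 1 and treated mouse 1 as the low mice, and the groups overlapped throughout. The differences were -0.05 between *mdx* and C57 (interval -0.88 to 0.78), -0.04 between treated and *mdx* (interval -0.81 to 0.73) and -0.09 between treated and C57 mice, none called, and each turned sign when some 1 mouse was left out.

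*Prelp* encodes a protein that joins the heparan sulfate chains of perlecan to collagen, anchoring basement membranes. Signals of *Prelp* on the log2 scale were 10.51, 10.40 and 9.83 in C57, 10.48, 10.96, 10.83 and 10.88 in *mdx*, and 10.06, 10.61, 10.36 and 10.51 in treated mice. Of the *mdx* mice, 1 lay among the C57 mice and the others above them, and the treated mice overlapped both. The means differed by 0.54 between *mdx* and C57 mice (interval 0.14 to 0.94, adjusted p = 0.0782), by -0.40 between treated and *mdx* mice (interval -0.77 to -0.04, adjusted p = 0.129) and by 0.14 between treated and C57 mice (adjusted p = 0.598), none of them called.

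Keratocan, encoded by *Kera*, is known from the cornea and is also found in tendon. Signals of *Kera* on the log2 scale were 5.85, 5.76 and 4.80 in C57, 6.04, 6.36, 5.96 and 5.22 in *mdx*, and 5.33, 6.51, 6.54 and 6.83 in treated mice. The 3 highest values were those of treated mice 2, 3 and 4, while treated mouse 1 lay below C57 mice 1 and 2. No difference was called: 0.43 between *mdx* and C57 (interval -0.38 to 1.23, adjusted p = 0.542; 0.09 without C57 mouse 3), 0.41 between treated and *mdx* (interval -0.34 to 1.15, adjusted p = 0.439) and 0.83 between treated and C57 mice (interval 0.03 to 1.63, adjusted p = 0.114). Without treated mouse 1 the last of these was 1.16 and called (adjusted p = 0.0245).

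Osteomodulin, encoded by *Omd*, is a keratan sulfate proteoglycan of bone. Its log2 signal lay between 2.72 and 2.86 in all 11 mice, below the minimum signal in every one, and it was not tested. On chromosome 13 *Omd* thus lies between 2 genes with signal, *Aspn* and *Ogn*. Of 7 cartilage and bone markers, 3 were tested and 0 called. Their summed intensity was 235 and 315 in *mdx* mice 1 and 3, and 131 to 178 in the others. The log2 signal of *Ibsp*, a bone gene among them, was 6.40 and 7.04 in *mdx* mice 1 and 3, and 2.98 to 4.02 in the others.

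Osteoglycin, also called mimecan and encoded by *Ogn*, is a class III member that takes part in collagen fibril assembly. Its log2 signal was 6.26, 5.97 and 5.75 in C57, 6.44, 6.55, 6.37 and 5.71 in *mdx*, and 6.38, 6.94, 6.97 and 7.22 in treated mice. The treated mice all lay above the C57 mice, 3 of them above every *mdx* mouse, and *mdx* mouse 4 was the lowest of the series. *Ogn* was higher in treated than in C57 mice by 0.88 (interval 0.39 to 1.37, adjusted p = 0.0159), a call lost without C57 mouse 2 (adjusted p = 0.0532) or C57 mouse 3 (adjusted p = 0.0733).

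The difference in *Ogn* between treated and *mdx* mice was 0.61 (interval 0.16 to 1.06, adjusted p = 0.0749) and that between *mdx* and C57 mice 0.27 (interval -0.22 to 0.76, adjusted p = 0.517), neither of them called. *Dcn*, *Kera* and *Ogn* thus shared an order of means, C57 lowest and treated highest, in which neighbouring groups were not called apart.

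Of 9 other SLRP genes, 4 were tested. *Ecm2*, a matrix protein gene next to *Aspn* on chromosome 13, had log2 signals of 5.58, 5.80 and 5.17 in C57, 6.38, 6.51, 6.25 and 6.0 in *mdx*, and 6.49, 6.40, 6.85 and 6.95 in treated mice. All *mdx* and treated mice lay above all C57 mice. *Ecm2* was higher by 0.77 in *mdx* (adjusted p = 0.0157) and by 1.16 in treated mice (adjusted p = 0.00135), and the first of these calls was lost without C57 mouse 3 (adjusted p = 0.0775).

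Chondroadherin, encoded by *Chad*, is a cell-binding protein of cartilage and tendon. Its log2 signal ranged over 9.92 to 11.40 among C57, 9.43 to 11.07 among *mdx* and 8.48 to 10.69 among treated mice, with the lowest value of each group in C57 mouse 3, *mdx* mouse 1 and treated mouse 1. None of its differences was called, with -0.48 in *mdx* against C57, -0.43 in treated against *mdx* and -0.91 in treated against C57 mice. With single mice left out the first of these ran from -0.94, without C57 mouse 3, to -0.16, without *mdx* mouse 1. *Podn*, encoding podocan, and *Tsku*, encoding tsukushi, were not called in any comparison, with differences between -0.28 and 0.19. Without treated mouse 2, *Tsku* was called lower in treated than in *mdx* mice (-0.48 in place of -0.26, adjusted p = 0.0156). *Epyc*, *Optc*, *Chadl*, *Nyx* and *Podnl1* had group means below the minimum signal and were not tested.

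Relative to the C57 mean, neighbours on a chromosome did not all move alike. On chromosome 10, *Lum* lay above the C57 mice in every *mdx* and treated mouse, while *Kera* overlapped them in both groups and *Dcn* in the *mdx* mice alone. On chromosome 13, *Ecm2* and *Aspn* were called in *mdx*, *Ogn* was not, and *Omd* was below the minimum signal. The chromosome 1 pair *Prelp* and *Fmod* was called in no comparison. The closest pair of members over the 11 mice was *Aspn* with *Lum*, on different chromosomes, with a Pearson correlation of 0.976. *Kera* with *Ogn* stood at 0.909 and, with the other SLRP genes, *Dcn* with *Ecm2* at 0.920 and *Fmod* with *Chad* at 0.901, while *Bgn* with *Dcn*, both class I, stood at 0.265 and *Aspn* with *Fmod* at -0.169. These correlations are descriptions over 11 mice that include the group differences, and carry no p.

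**Figure D3:**
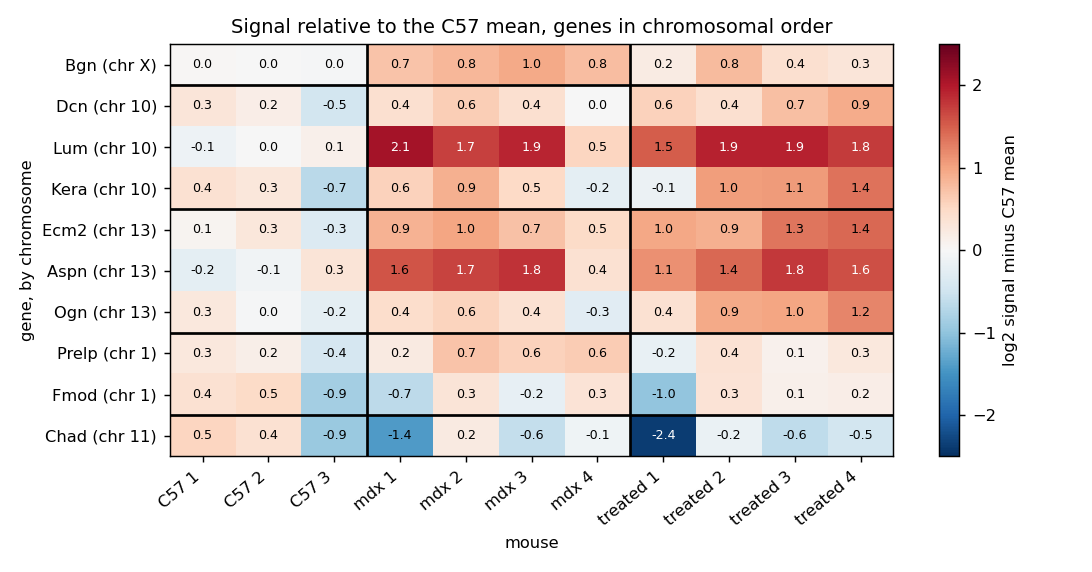
Log2 signal minus the C57 mean for the 8 tested members with *Ecm2* and *Chad*, in chromosomal order (rows), in each of the 11 mice (columns); red is above and blue below the C57 mean. *Lum* and *Aspn* are red in all *mdx* and treated mice and palest in *mdx* mouse 4. *Fmod* and *Chad* are lowest within each group in C57 mouse 3, *mdx* mouse 1 and treated mouse 1, and *Chad* lies below the C57 mean in every treated mouse.

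Tendon genes moved with several members. C57 mouse 3 was the lowest of its group in 6 of 8 members, *Aspn* and *Lum* excepted, and in 7 of 8 tenocyte markers. Treated mouse 1 was the lowest of its group in 7 of 8 members, *Dcn* excepted, and in 7 of 8 tenocyte markers, and *mdx* mouse 1 was the lowest *mdx* mouse in 3 members, *Bgn*, *Fmod* and *Prelp*, and in 6 of 8 tenocyte markers. The low values were not particular to tendon genes: treated mouse 1 was also the lowest of its group in 6 of 7 macrophage and 6 of 9 fibroblast and fibro-adipogenic progenitor markers, and *mdx* mouse 1 in 6 of 7 macrophage markers.

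The summed intensity of the 8 tenocyte markers, among them the tendon regulators *Scx* and *Mkx* and the tendon membrane protein gene *Tnmd*, was 3868, 3401 and 1381 in C57 mice, 3474, 5195, 4113 and 5049 in *mdx* mice, and 2306, 5499, 4766 and 4699 in treated mice. Between *mdx* and C57 mice *Cilp* and *Egr1* of the 8 were called higher, by 2.05 and 0.79, and 7 of the 8 differences were above 0. Between treated and *mdx* mice 0 were called by limma. Over all probe sets 12.0% were called in the first of these comparisons and 11.1% in the second. The part of tendon or of the other cells in the values of *Fmod*, *Prelp*, *Kera*, *Ogn*, *Dcn* and *Chad* was not tested.

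*Mdx* mouse 4 had a different profile. It was the lowest *mdx* mouse in 5 of 8 members, *Dcn*, *Aspn*, *Lum*, *Kera* and *Ogn*, while its tenocyte sum was among the higher ones and its macrophage sum, 4117, was above those of *mdx* mice 1 and 3. It was also the lowest *mdx* mouse in 5 of 9 fibroblast and fibro-adipogenic progenitor markers, and its sums for these (10429), for regenerating fibre markers (792) and for endothelial markers (2013) were the lowest of the *mdx* mice. Their part in its SLRP values was not tested. Without it, the difference between *mdx* and C57 mice was 1.89 in *Lum* and 1.69 in *Aspn*.

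Among the 11841 other genes tested, those with the signal most like *Bgn* over the 11 mice were *Cfb*, encoding complement factor B, with a Pearson correlation of 0.979, *Cxcl16*, a chemokine of macrophages, with 0.978, and *Myl4*, an embryonic myosin light chain, with 0.975. For *Aspn* they were *Lum* with 0.976, *Angptl1* with 0.947 and *Vcam1*, a cell adhesion molecule, with 0.935. For *Lum* they were *Aspn*, *Tspan13* with 0.945 and *Col14a1*, a collagen of fibril surfaces, with 0.933. The genes most like *Bgn* thus were none of those most like *Aspn* and *Lum*.

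Fibroblast and fibro-adipogenic progenitor markers, which stand for the cells that make most muscle matrix, were 10, of which 9 were tested. For this and the following lists, the background is the share called over all probe sets. It was 12.0% between *mdx* and C57, 11.1% between treated and *mdx*, and 24.6% between treated and C57 mice. Between *mdx* and C57 mice 3 of the 9 markers were higher, *Mfap5* by 0.83, *Dpt* by 0.51 and *Cd34* by 0.44. After treatment, relative to *mdx*, *Pi16* fell by 1.01 and *Ly6a* fell by 0.58, and between treated and C57 mice 5 were higher, led by the receptor gene *Pdgfra* with 1.06, and 1 lower. Their summed intensity lay between 8656 and 9101 for C57, 10429 and 12453 for *mdx*, and 8647 and 10923 for treated mice, so treated and *mdx* mice overlapped. Their part in the SLRP differences was not tested.

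Of the 10 collagen genes of SLRP-bound fibrils and collagen VI, 6 rose in *mdx* and none fell, with a median difference of 0.94. *Col3a1* rose by 1.38, *Col5a2* and *Col6a3* by 1.24 each and *Col14a1* by 0.95, while *Col1a1* and *Col1a2*, the chains of collagen I, stood at 0.20 and 0.32 and were not called. Between treated and *mdx* mice 0 were called by limma (median -0.09, 1 at an unadjusted p under 0.05), and between treated and C57 mice 6 were higher (median 0.68).

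Of 10 proteases known to cleave SLRPs, 6 rose in *mdx* (median 1.29), among them the aggrecanases *Adamts4* by 1.66 and *Adamts5* by 1.19, the membrane-bound collagenase *Mmp14* by 1.53, and the stromelysin *Mmp3* by 2.48. *Adamts4* and *Mmp3* had C57 means below the minimum signal and were tested because of the groups in which they were high. After treatment *Mmp3* fell by 0.90 relative to *mdx* (adjusted p = 0.0294), the only 1 of the 10 called (median -0.24), and 5 remained higher than in C57 mice (median 0.98).

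Growth factors held by SLRPs were 11. In *mdx* *Tgfb1* rose by 0.88, *Igf1* by 0.85 and *Tgfb2* by 0.64, and *Fgf2* fell by 0.48 (median 0.18). After treatment *Igf1* alone was called, 0.44 higher (median -0.12), and 4 of the 11 had an unadjusted p under 0.05. *Tgfb1*, at -0.42 (adjusted p = 0.077), and *Mstn*, the myostatin gene, at 0.93 (adjusted p = 0.0666), differed in opposite directions and were not called. Between treated and C57 mice *Igf1* and *Tgfb2* were higher, by 1.29 and 0.79. The 1 of 11 called after treatment and these 2 of 11 were like the shares over all probe sets, 11.1% called and 15.6% called higher.

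Of 17 receptors and membrane partners, 14 were tested. In *mdx* *Cd14*, a co-receptor of toll-like receptors, rose by 0.81, *Itgb1*, encoding integrin beta 1, by 0.63 and the endocytic receptor gene *Lrp1* by 0.46, and *Igf1r* fell by 0.43 (median 0.13). After treatment *Met* and *Itgb1* rose, by 0.61 and 0.58 (median 0.19), 2 of 14 where 11.1% of all probe sets were called. Between treated and C57 mice 6 were higher (median 0.29), including *Utrn*, the gene of the dystrophin relative utrophin, by 0.62, *Musk*, the receptor kinase of the neuromuscular junction, by 0.58 and *Egfr* by 0.75.

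Other proteoglycans were 23, of which 16 were tested. In *mdx* *Sdc2*, a cell surface heparan sulfate proteoglycan gene, rose by 0.86 and the hyaluronan receptor gene *Cd44* by 0.83, and *Gpc3* fell by 0.72 (median 0.15). Between treated and *mdx* mice 0 were called by limma (median 0.06, 4 at an unadjusted p under 0.05). Between treated and C57 mice 6 were higher, with *Vcan*, encoding versican, at 0.85 and *Hspg2*, encoding perlecan, at 0.69, and 1 was lower.

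The enzymes that build the SLRP sugar chains are given as separate lists, beside a share of 12.0% of all probe sets called in *mdx*. Of 19 tested for the linker and for chondroitin and dermatan sulfate, 3 rose in *mdx* (median 0.21): the dermatan sulfate epimerase gene *Dse* by 0.55, the chain-building enzyme gene *Chsy1* by 0.44, and *Ust*, a sulfotransferase gene, by 3.04. The value of *Ust* comes from a probe set that the deposited annotation marks as open to cross-hybridization and whose C57 mean was below the minimum signal. Of 5 keratan sulfate enzymes tested, *Chst2* and *B3gnt2* rose, by 0.53 and 0.39 (median 0.11). Neither list had a call between treated and *mdx* mice by limma, where 2 genes of each had an unadjusted p under 0.05. Between treated and C57 mice 6 of the 19 and 1 of the 5 were higher, where 15.6% of all probe sets were. *Dse* was higher by 0.92, *B3gnt2* by 0.71 and *Ust*, with the same limits, by 2.83.

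**Figure D4:**
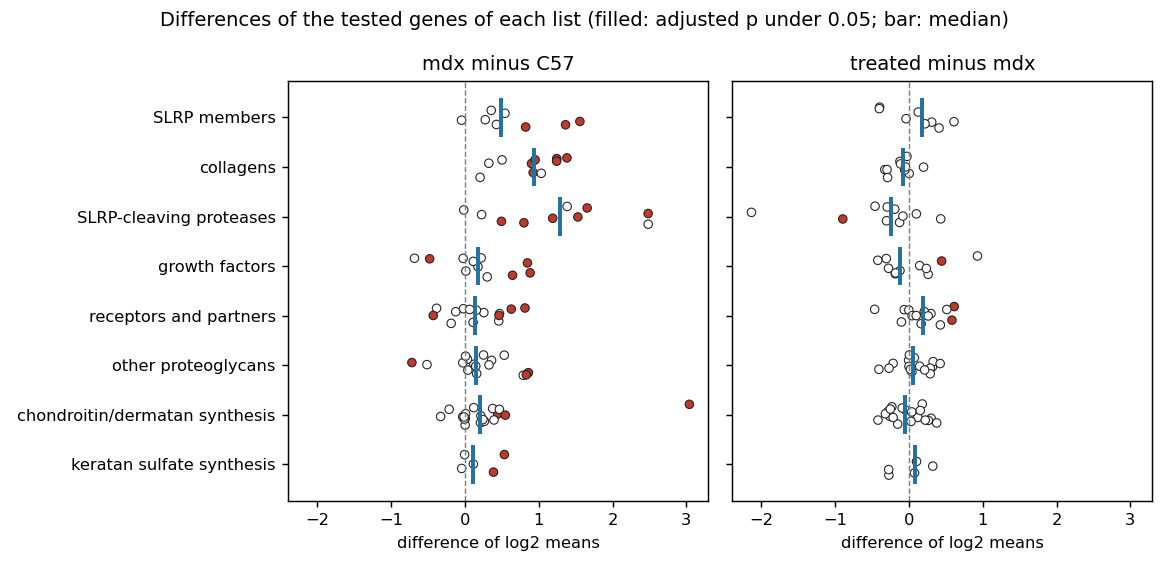
Differences of log2 means of the tested genes of the members and 7 pathway lists between *mdx* and C57 mice and between treated and *mdx* mice; each circle is a gene, filled if called at an adjusted p under 0.05, and bars mark list medians. In *mdx* minus C57 the medians of collagens and proteases are 0.94 and 1.29 and that of the SLRP members 0.48; in treated minus *mdx* the medians of the lists drawn lie within -0.24 to 0.19.

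Markers of other cells of the muscle are given for the same sections. Regenerating fibre markers rose in *mdx* in 6 of 6 tested genes, with *Chrng* at 2.24 and *Myh3* at 1.87, both tested although their C57 means were below the minimum signal, and *Chrna1* fell by 0.62 after treatment. Endothelial markers were called in 0 of 6 genes in *mdx* by limma, with 0 at an unadjusted p under 0.05, and in 2 of 6 after treatment, *Tek* by 0.97 and *Pecam1* by 0.78. Of 4 adipocyte markers tested, *Adig* fell by 0.81 in *mdx*, and *Adipoq*, *Plin1* and *Cidec* fell by 1.64, 1.56 and 1.38 between treated and *mdx* mice. The part of these cells in the SLRP values was not tested.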

How the data were processed

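The authors hybridized RNA of 11 mice to Affymetrix Mouse Gene ST 1.1 arrays and summarized each probe set in Affymetrix Expression Console with RMA (background correction, quantile normalization on a sketch of the data, median polish). The deposited intensity values are linear, per gene-level probe set (28350), with a genome build for their positions not given in the sources used here. The log2 of 100% of them lies on a whole hundredth, to within 0.0001, so smaller differences are not resolved. The intensities were turned to log2, and limma 3.58.1 in R 4.3.3 (lmFit, eBayes, two-sided, 1 mean per group, all 11 mice, Benjamini-Hochberg over 14494 probe sets with a group mean of at least 30) gave the adjusted p-values; the fit was tested on simulated data. Genes read by more than 1 probe set were represented by the brightest. Samples of a group are separate mice, and p-values measure the spread between these mice.

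The members and lists were chosen with earlier results of these data known, and nothing here is independent support for them. Named were all members and other SLRP genes, up to 4 called genes with the largest difference per list and comparison, and the 3 genes most correlated with each member called in *mdx*. *Col1a1*, *Col1a2*, *Ibsp* and the uncalled *Tgfb1* and *Mstn* differences were added after their values were seen. All 9 Entrez identifiers matched the RefSeq table. Alternatives were the methods' t-test, the study's threshold (unadjusted p under 0.01 with 1.5-fold), fits without the group not compared, a trended and robust prior, no minimum signal or 100, median centring, repeated quantile normalization, averaging the probe sets of each gene, a block for the mouse number (replicate block), and leaving out each mouse. Peripheral nerve markers are not reported here. Python 3.11.15, pandas 2.3.3, NumPy 2.4.6 and matplotlib 3.10.9 were used.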

Additional observations from a re-analysis of the deposited data

Results flagged for a closer look

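Of 24 groups of 4 mice, those of the 8 tested members and the 4 other tested SLRP genes, 2 held a mouse far from the others of its group; chance alone gives about 1 in 20. The log2 signal of *Aspn* in *mdx* mouse 4 was 5.13, against 6.33 to 6.56 in the other *mdx* mice, a gap of 0.839 of the group's range. That of *Fmod* in treated mouse 1 was 10.68, against 11.80 to 12.00 in the other treated mice, a gap of 0.848 of the range.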

How the results depend on the processing

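*Bgn*, *Aspn* and *Lum* kept their direction between *mdx* and C57 mice in all alternatives, and all 3 were called in every one but 2: with the methods' t-test after Benjamini-Hochberg the count was 1, *Bgn* (adjusted p 0.102 for *Lum* and 0.136 for *Aspn*), and at a minimum signal of 100 *Aspn* was not tested, leaving 2. Between treated and *mdx* mice the count of 0 became 1, *Bgn*, with a trended and robust prior, with arrays centred on their medians and without treated mouse 2 (0 to 1 over the mice left out). Between treated and C57 mice the count of 5 was 2, *Aspn* and *Lum*, with the methods' t-test, 3, *Aspn*, *Lum* and *Ogn*, with the replicate block, 4 with only the groups compared and at the study's threshold, and 2 to 6 over the mice left out: 2 without C57 mouse 2 or 3 (*Aspn* and *Lum*) and 3 without treated mouse 3. Among the SLRP genes the replicate block changed 1 other call, *Ecm2* in *mdx* minus C57 (adjusted p 0.0569). The labels use the numbers only to name the mice. Same-numbered mice deviated together in 1 of 10 pairs at a correlation over 0.1 (-0.297 to 0.153), and different-numbered pairs ran from -0.409 to 0.425. Deviations from the means of such small groups cannot show whether the numbers carry a batch.

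Of 711 recomputed differences, 667 kept direction and call, 21 lost and 5 gained a call, and 18 changed sign, none of them called. With repeated quantile normalization *Fmod* was 0.03 in treated minus *mdx* and 0.00 in treated minus C57. Over the mice left out, *Fmod* ranged in *mdx* minus C57 from -0.48 to 0.19, in treated minus *mdx* from -0.24 to 0.26 and in treated minus C57 from -0.52 to 0.21. Treated minus *mdx* ranged from -0.20 to 0.27 in *Aspn*, -0.12 to 0.39 in *Lum* and -0.75 to 0.06 in *Chad*, and treated minus C57 from -0.07 to 0.27 in *Prelp* and -0.32 to 0.03 in *Tsku*. Of 1071 counts of the other lists, 866 were within 1.5 times the main count. The cause of these changes was not tested, beyond the fewer mice or genes that some settings leave.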
